A study of Mus musculus with 53 samples.

Results

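Tumours of beta-catenin transgenic mice were compared directly with tumours of Cdkn2a knockout mice, which take up 12 of the 53 arrays of a series on mouse T-cell lymphomas. The arrays were chosen by their genotype label alone: 3 carry the beta-catenin transgene and 9 the Cdkn2a knockout combined with retroviral insertional mutagenesis, in which a virus that integrates near growth genes speeds up tumour formation. Total RNA was extracted with Trizol from tumour cells labelled T-cell lymphoblasts, from C57BL/6 mice given no treatment, and each sample was hybridized to 1 array. All 12 tumours are labelled TLX1 negative. The other 41 arrays cover 13 further lymphoma-prone backgrounds. The labels name neither the beta-catenin allele nor the promoter that drives it, give no age, and leave unsaid whether the samples came from different mice. The p-values therefore reflect no more than the variation among these particular arrays, and that may be technical. The titles of the Cdkn2a knockout samples name genes or gene pairs: myc_I is replicate 1, ras_I 2, mycras_mix_II 3, myc_pure_II 4, mycras_mix_III 5, myb_II 6, myc_mix_I 7, pim1_ccnd3 8 and myb_I 9. The beta-catenin replicates 1, 2 and 3 are b_cat_I, b_cat_II and b_cat_III.

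Beta-catenin is the transcriptional arm of the Wnt pathway: when it escapes degradation it enters the nucleus, binds TCF and LEF proteins and switches on targets, many of which feed back to dampen the pathway. In the thymus this axis acts with Notch, the receptor family that sets T-cell fate and drives many T-cell leukaemias. The Cdkn2a locus encodes inhibitors that hold back the cell cycle and protect p53, and its loss removes a brake on oncogenes. Most arrays of both backgrounds have low levels of Notch targets such as Dtx1, and the comparison asks what else separates them.

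Values are log2 of the deposited intensities. The log2 array medians lay between 8.95 and 9.20, and no detection calls were used, so a level near or below the lower quartile of an array (8.07 to 8.30) cannot be told from background. Within the beta-catenin group arrays correlated at 0.972 to 0.977 (Pearson, over all probe sets). Cdkn2a knockout replicate 8, titled pim1_ccnd3, stood apart from the other 8 of its group, with correlations of 0.883 to 0.932, whereas the other pairs of that group lay between 0.948 and 0.988. Its array median was the highest of the 9, its Rag1 level was 8.14 against 10.97 to 12.47 on the other Cdkn2a knockout arrays, and its Cd8b1 level was 9.19 against 11.95 to 12.88. Of 5 measures of array quality, none passed an exact permutation test between the groups (two-sided, 220 assignments, p from 0.223 to 0.786, adjusted p = 0.786 for each), and 2 of 45 bacterial control probe sets (4.44%) did not overlap between the groups.

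The targeted genes did not check the labels. Ctnnb1, which encodes beta-catenin, read 12.90, 12.96 and 13.32 in beta-catenin tumours, against 12.25, 12.72 and 13.24 (lowest, median and highest of 9) in Cdkn2a knockout tumours. The groups overlapped, and the difference of 0.28 ± 0.17 (SE) did not pass (limma adjusted p = 0.307); the other 2 probe sets of Ctnnb1 gave differences of 0.64 and 0.47. Cdkn2a read 8.10, 8.52 and 8.10 in beta-catenin tumours, against 8.04 to 8.43 in Cdkn2a knockout tumours, below every array median, and was tested only without a filter on low values (-0.03 ± 0.10, adjusted p = 0.874). No source used here gives the place of its probe set relative to the deleted part, so its level checks nothing. Cdkn2b, the neighbouring cell-cycle inhibitor gene, read 8.24 to 8.32 in beta-catenin tumours and 8.01 to 8.43 in Cdkn2a knockout tumours.

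Of 7571 genes tested, 314 were higher (4.15%) and 248 lower (3.28%) in beta-catenin tumours at an adjusted p under 0.05 in limma with Benjamini-Hochberg adjustment; 60 and 40 of them differed by 2-fold or more. The median difference over all genes tested was 0.01. Without Cdkn2a knockout replicate 8, 917 genes (12.1%) were higher and 685 (9.05%) lower, 21.2% in all, and all 562 genes called with it remained called in the same direction. With any 1 beta-catenin array left out the counts fell to between 82 and 211 higher and between 71 and 149 lower. Of 80 genes that the naming rule chose 56 were called, and 22 of these kept their call when any 1 of the 12 arrays was left out. Against the 4 Cdkn2a knockout arrays with no myc in the title (replicates 2, 6, 8 and 9) alone, 16 genes were higher and 10 lower, and 13 of the 56 kept their call. Among the 22 above, Grb10, Ppic, Pik3r4, Slc40a1, Tnfrsf19, Nlk, Apaf1, Irf4, Il4ra and Cd27 lost theirs there. Against the arrays with myc in the title 54 of the 56 kept their call. The arrays with no myc in the title are fewer and include replicate 8. Whether the lost calls follow the titles was not tested. Of the 56, Ccn2, Cd36, Sparcl1 and Fbxo2 had every beta-catenin array at or below its own lower quartile, so their folds are given as bounds, with such values raised to that quartile, a floor chosen after seeing the data.

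Promoters of Tnfrsf19 and Wif1, both Wnt feedback or target genes that rose, are shown because TCF and LEF proteins bind the letters CTTTGA, in either orientation. Both windows run from 250 bases before to 50 bases after the gene start in the RefSeq annotation of GRCm38.p6. Capitals mark the motif, which on the opposite strand reads TCAAAG. The Tnfrsf19 window is chr14:61037938-61038237, minus strand, and the Wif1 window is chr10:121033754-121034053, plus strand:
Tnfrsf19: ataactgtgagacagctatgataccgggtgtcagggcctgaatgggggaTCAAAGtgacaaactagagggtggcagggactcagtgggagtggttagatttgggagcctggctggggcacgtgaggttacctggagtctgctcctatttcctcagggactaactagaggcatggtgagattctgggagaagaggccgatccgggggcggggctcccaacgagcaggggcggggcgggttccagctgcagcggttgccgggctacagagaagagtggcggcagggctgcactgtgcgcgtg
Wif1: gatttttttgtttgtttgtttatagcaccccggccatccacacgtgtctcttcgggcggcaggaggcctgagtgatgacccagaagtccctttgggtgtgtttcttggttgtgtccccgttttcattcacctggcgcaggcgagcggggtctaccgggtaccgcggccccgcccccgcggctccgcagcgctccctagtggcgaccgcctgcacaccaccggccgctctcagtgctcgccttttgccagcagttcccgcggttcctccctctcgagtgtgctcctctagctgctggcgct

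The Tnfrsf19 window holds 1 match, which starts at position -201 relative to the gene start, and the Wif1 window holds none; another window of Tnfrsf19 holds none either. Of the 20 Wnt feedback and target genes tested, 13 matched a promoter entry and 4 of these held the motif in at least 1 window. Across all genes 18.2% did, and 16% of all windows of this length. A match is a description of the letters in the window.

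Some Wnt feedback and target genes were higher in beta-catenin tumours, among them Wif1 and Notum, which restrain Wnt signalling. Of 20 Wnt feedback and target genes tested (33 of 35 listed were measured), 4 rose and 0 fell, against 4.15% of all genes that rose, and the median difference was 0.33 against 0.01 over all genes. Without Cdkn2a knockout replicate 8, 6 rose, against 12.1% of all genes, and 0 fell.

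Wif1, which encodes a secreted inhibitor that binds Wnt ligands, read 12.16, 11.50 and 11.35 in beta-catenin tumours, against 6.28, 7.62 and 10.70 (lowest, median and highest of 9) in Cdkn2a knockout tumours. All 3 beta-catenin tumours lay above every Cdkn2a knockout tumour, but Cdkn2a knockout replicates 2, 3, 4 and 6 (9.65 to 10.70) were far above the other 5 (6.28 to 7.62). The difference was 3.42 ± 0.93 (10.7-fold, limma adjusted p = 0.0432). Those 5 arrays lay below their lower quartiles, and with their values raised to it the fold was 6.4. The call ended without any 1 of beta-catenin replicates 1 to 3 or Cdkn2a knockout replicates 1, 4, 5, 7 and 9, with differences of 3.18 to 3.73 and adjusted p up to 0.147 over all arrays left out in turn.

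Notum, which encodes a secreted enzyme that inactivates Wnt ligands, read 9.90, 10.38 and 10.43 in beta-catenin tumours, against 9.54, 9.65 and 9.80 in Cdkn2a knockout tumours. The groups did not overlap, and the difference was 0.59 ± 0.11 (adjusted p = 0.00767, or up to 0.0629 without beta-catenin replicate 3). Tnfrsf19, a receptor gene of the tumour necrosis factor receptor family, read 9.16, 10.19 and 9.31 in beta-catenin tumours, against 8.63, 8.76 and 8.93 in Cdkn2a knockout tumours, without overlap. It rose by 0.78 ± 0.17 (adjusted p = 0.0171). Its other 2 probe sets gave 0.57 and 1.80, and by the one of largest interquartile range the call was lost (1.80, adjusted p = 0.0628). Plaur, the urokinase receptor gene, rose by 0.45 ± 0.11 (adjusted p = 0.032), a call lost without beta-catenin replicate 2 or 3 or Cdkn2a knockout replicate 1, 4 or 5 (0.32 to 0.56, adjusted p up to 0.203).

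Axin2, a scaffold of the complex that degrades beta-catenin and a direct Wnt target, read 11.59, 11.42 and 11.81 in beta-catenin tumours, against 9.71, 10.39 and 11.56 in Cdkn2a knockout tumours. Only Cdkn2a knockout replicate 6 reached the beta-catenin range, and the difference of 1.14 ± 0.36 missed the threshold (adjusted p = 0.0692, or 0.0516 without replicate 8). By its other probe set Axin2 was 0.76 higher without overlap, at 9.11 to 9.37 in beta-catenin tumours against 8.16 to 8.83. Apcdd1, a membrane inhibitor of Wnt signalling, was examined after its values were seen. It read 12.16, 12.03 and 12.81 in beta-catenin tumours. In Cdkn2a knockout tumours it was 9.80, 11.47, 10.74, 11.76 and 12.13 in replicates 1, 2, 3, 4 and 6, and 7.33, 7.09, 6.87 and 6.97 in replicates 5, 7, 8 and 9. That within-group range exceeded the difference between the groups (2.98 ± 1.20, adjusted p = 0.136). Means of the other 13 backgrounds ran from 6.75 to 9.46. By another probe set of Apcdd1 the groups did not overlap, at 10.33 to 11.81 in beta-catenin tumours against 7.08 to 10.15 (difference 2.51). By its remaining probe sets they did (2.98 for each). Lef1, a partner of beta-catenin on DNA, and Nkd1, a cytoplasmic inhibitor, differed by 0.47 ± 0.21 and 0.35 ± 0.24 (adjusted p = 0.172 and 0.36). Tcf7 was not analysed here.

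**Figure D1:**
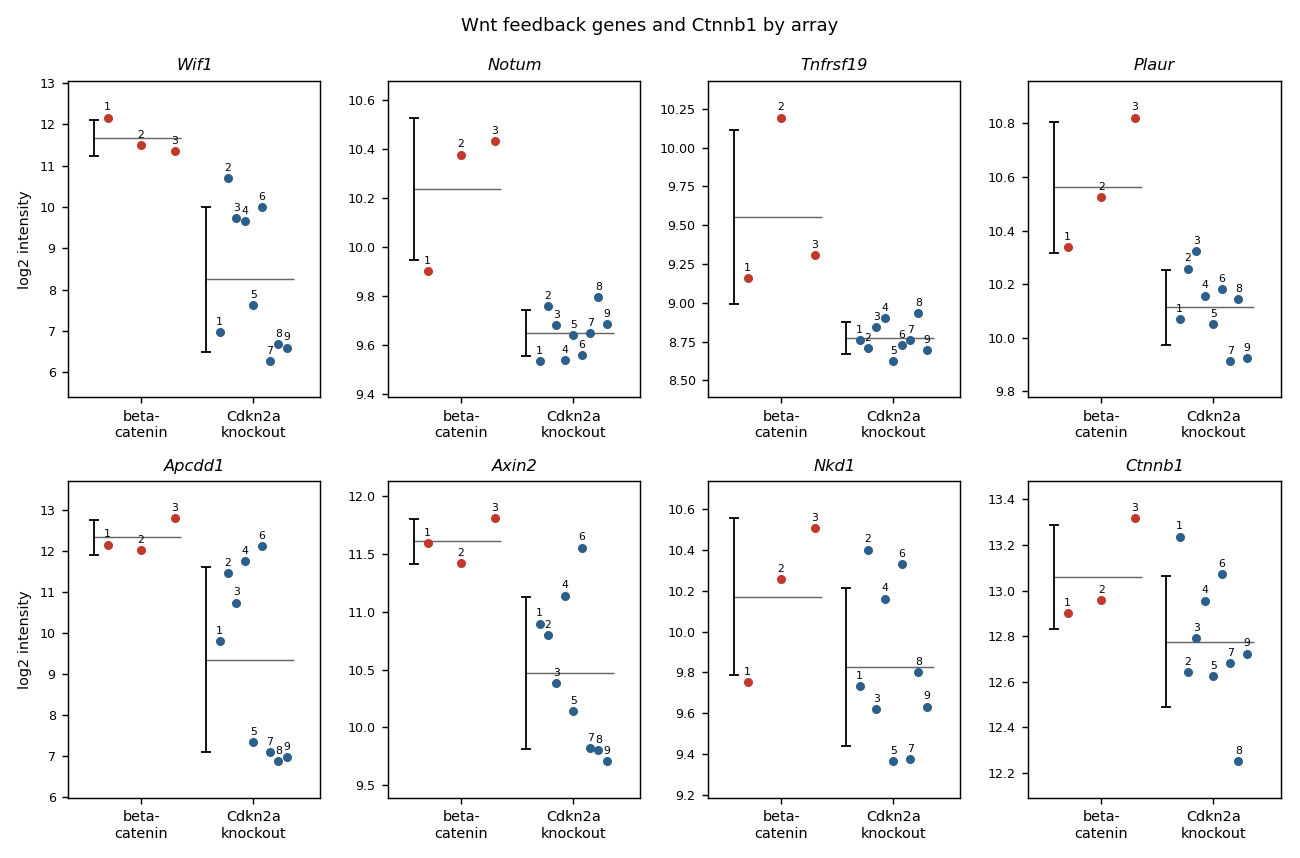
Log2 intensity of 7 Wnt feedback and target genes and Ctnnb1 on the 3 beta-catenin and 9 Cdkn2a knockout arrays. Points are arrays numbered by replicate, lines are means and bars at the left are SD. Wif1, Notum, Tnfrsf19 and Plaur do not overlap between the groups, while Apcdd1 on Cdkn2a knockout arrays spans 6.87 to 12.13.

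Among 23 tested genes of Wnt signal transduction 4 rose and 0 fell, against 4.15% and 3.28% of all genes (median difference 0.19). Nlk, a kinase that acts on TCF and LEF proteins, read 11.29, 11.49 and 10.94 in beta-catenin tumours, against 10.07, 10.27 and 10.62 in Cdkn2a knockout tumours. The groups were separate, with a difference of 0.93 ± 0.14 (adjusted p = 0.00174) and 1.76 by the other probe set. The call held without any 1 array, but not against the Cdkn2a knockout arrays with no myc in the title (adjusted p = 0.164). Fzd6, a Wnt receptor gene, rose by 0.51 ± 0.13, Ctnnbip1, whose product blocks the binding of beta-catenin to TCF, by 0.34 ± 0.08, and Pygo2, a coactivator gene, by 0.23 ± 0.06. These calls were lost without beta-catenin replicates 1 or 2 or Cdkn2a knockout replicates 4 or 5 for Fzd6 (adjusted p up to 0.152), without beta-catenin replicate 1 or 2 for Ctnnbip1 (up to 0.0869), and without any array other than Cdkn2a knockout replicates 6 and 8 for Pygo2 (up to 0.183). Vangl2, a planar polarity gene examined after its values were seen, was higher without overlap (1.37 ± 0.23, adjusted p = 0.0053).

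Notch1, Dtx1 and Ptcra were low in beta-catenin tumours, but not on every Cdkn2a knockout array. Notch1 read 8.52, 8.13 and 8.39 in beta-catenin tumours, against 8.25, 8.74 and 12.11 in Cdkn2a knockout tumours. The value of 12.11 belongs to replicate 7, titled myc_mix_I, and replicates 5, 8 and 9 read 9.27, 9.57 and 10.08. Dtx1, a Notch target, read 8.83, 8.93 and 9.03 in beta-catenin tumours, against 8.53 to 9.18 on 8 Cdkn2a knockout arrays and 12.24 on replicate 7. Ptcra, whose product pairs with the beta chain before selection, read 7.74, 7.91 and 7.73 in beta-catenin tumours, against 7.85 to 8.51 on the same 8 arrays and 10.45 on replicate 7. Nrarp, a feedback inhibitor, read 7.85, 9.28 and 7.93 in beta-catenin tumours, and was highest in Cdkn2a knockout replicates 2 and 6 (9.74 and 9.24). Notch3 read 9.47 to 9.62 in beta-catenin tumours, above their array medians, against 8.82 to 9.89 in Cdkn2a knockout tumours.

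Replicate 7 was thus the high array for Notch1, Dtx1 and Ptcra. Means of Notch1 in the other backgrounds ran from 10.23 to 13.38. Of 15 Notch genes tested by limma 0 passed at an adjusted p under 0.05, 1 had an unadjusted p under 0.05, and 1 rose without replicate 8. Notch1 differed by -0.91 ± 0.66 (adjusted p = 0.39), Notch3 by 0.24 ± 0.24 (0.539) and Nrarp by -0.06 ± 0.45 (0.948). Dtx1, Hes1 and Ptcra did not pass the filter on low values and gave -0.18, -0.15 and -0.48 without it (adjusted p = 0.887, 0.625 and 0.557). With replicates 7 and 8 left out together, an alternative chosen after seeing the data, 843 genes were higher and 611 lower.

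**Figure D2:**
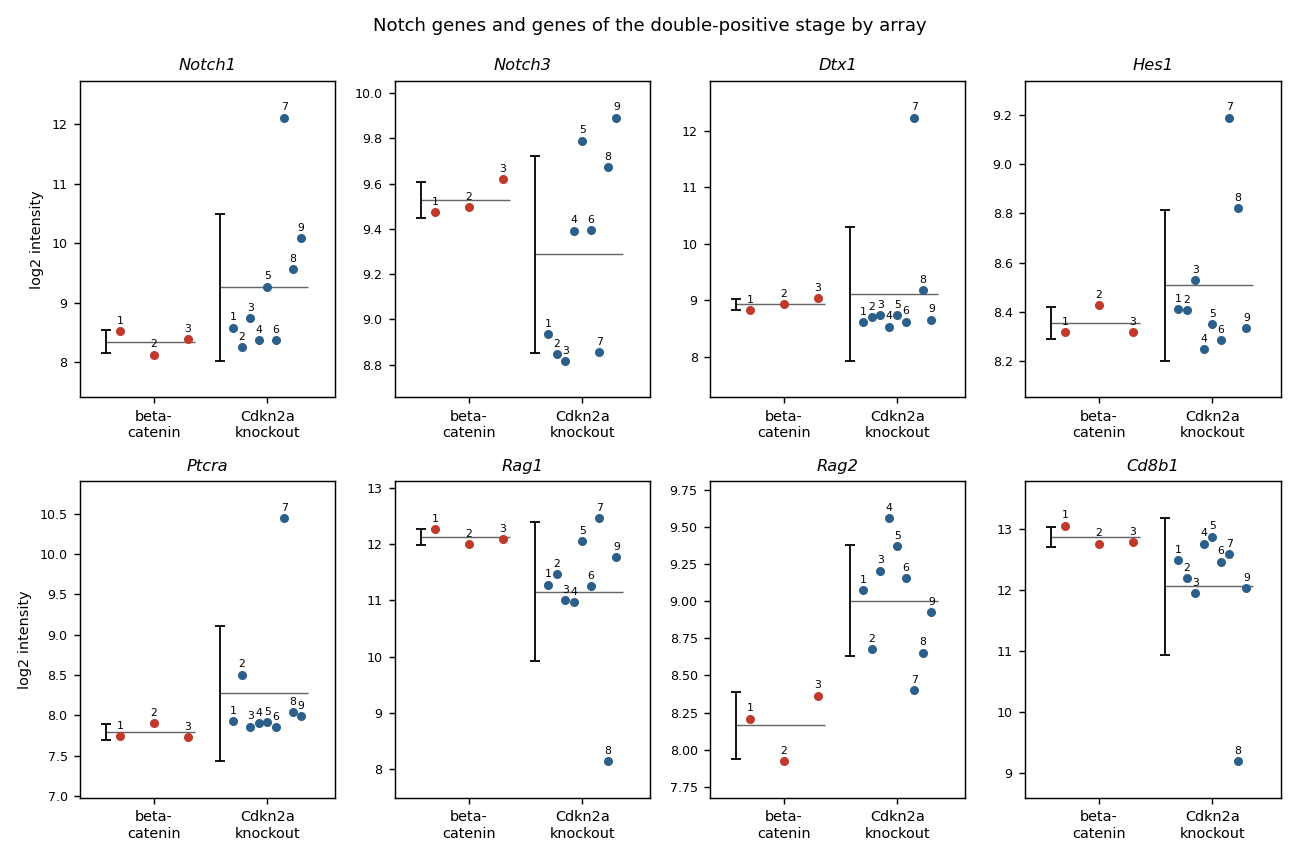
Log2 intensity of Notch genes and of genes of the double-positive thymocyte stage on the 3 beta-catenin and 9 Cdkn2a knockout arrays; points are arrays numbered by replicate, lines are means and bars at the left are SD. Cdkn2a knockout replicate 7 is high for Notch1, Dtx1 and Ptcra, and replicate 8 is low for Rag1 and Cd8b1.

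The genes of largest difference were mostly outside these pathways. Of all genes tested, 5.2% lay higher and 4.37% lower without overlap between the groups (9.58% in all), and 239 (3.16%) and 194 (2.56%) of the genes were also called. H2-Eb1, which encodes a beta chain of class II major histocompatibility molecules, read 12.54, 11.23 and 13.16 in beta-catenin tumours, against 8.44, 8.65 and 9.43 in Cdkn2a knockout tumours. It was 3.57 ± 0.31 higher (11.9-fold, adjusted p = 3.48e-05). Gdpd3, a lysophospholipase gene, read 11.30, 11.30 and 11.61 in beta-catenin tumours, against 7.97, 7.98 and 8.07 in Cdkn2a knockout tumours. On 8 of those 9 arrays the level was at or below the lower quartile, so the fold depends on the background level. The measured difference was 3.40 ± 0.08 (adjusted p = 1.62e-11), or 9.55-fold with those values raised to the quartile. With most Cdkn2a knockout levels at background, the small error and the p-value are limited in the same way as the fold. Gdpd3 also passed the filter on low values only through the beta-catenin arrays. Other named genes that passed only so include Tnni1, Lad1, Cwh43, Tnfrsf19, Irf4 and Cd274. Gdpd3 was not restricted to beta-catenin tumours, since the background means elsewhere reached 11.76 in Rag E2A knockout tumours.

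Tnni1, a slow skeletal muscle troponin gene, read 12.21, 11.85 and 10.48 in beta-catenin tumours, against 8.20, 8.52 and 8.80 in Cdkn2a knockout tumours. Its difference was 3.0 ± 0.27 (7.98-fold, adjusted p = 4.55e-05), and means of the other 13 backgrounds stopped at 8.71. Lad1, which encodes the basement membrane protein ladinin, read 11.77, 10.98 and 11.82 in beta-catenin tumours, against 8.43, 8.56 and 8.95 in Cdkn2a knockout tumours (2.92 ± 0.16, adjusted p = 5.52e-07). Here too the background means elsewhere stopped at 9.09. Grb10, an adaptor that restrains insulin receptor signalling, was 2.86 ± 0.38 higher (adjusted p = 0.00101), and Cdkn2a knockout replicate 2 at 10.68 stood above the other 8 (8.53 to 9.24). The other 2 probe sets of Grb10 gave 1.19 and 0.91, the mean of all gave 1.65, and the call was lost against the Cdkn2a knockout arrays with no myc in the title (adjusted p = 0.127).

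Cwh43, a gene of lipid remodelling of membrane anchors, rose by 2.5 ± 0.22, Ppic, a cyclophilin gene, by 1.99 ± 0.38 and Pik3r4, a regulatory subunit of a lipid kinase, by 1.88 ± 0.30. These 3 kept their calls without any 1 array, but Ppic and Pik3r4 lost theirs against the Cdkn2a knockout arrays with no myc in the title (adjusted p = 0.28 and 0.185). Efhd1, a mitochondrial calcium-binding protein gene, rose by 2.32 ± 0.48 (adjusted p = 0.0139), Dgka, a diacylglycerol kinase gene, by 1.88 ± 0.36 (0.00954) and Egln3, a prolyl hydroxylase gene of oxygen sensing, by 1.80 ± 0.42 (0.0225). Efhd1 lost its call without beta-catenin replicate 1 or 3 (adjusted p up to 0.0936), Dgka without replicate 3 (0.0609) and Egln3 without any 1 of the 3 (up to 0.109).

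Among genes that were lower, Ctse, which encodes the protease cathepsin E, read 11.56, 10.30 and 11.41 in beta-catenin tumours, against 13.74, 13.95 and 14.20 in Cdkn2a knockout tumours. The 9 Cdkn2a knockout arrays were nearly level, and the difference was -2.83 ± 0.21 (7.13-fold, adjusted p = 9.97e-06), or -1.21 with no call by the other probe set (adjusted p = 0.224). The means of the other backgrounds ran from 9.83 to 12.40, below all 9 Cdkn2a knockout arrays. Fbxo2, a ubiquitin ligase subunit gene that recognises glycoproteins, read 7.46, 7.42 and 7.34 in beta-catenin tumours, against 8.51, 8.93 and 9.63 in Cdkn2a knockout tumours. It was at least 1.82-fold lower (measured difference -1.63 ± 0.22, adjusted p = 0.000942), since the beta-catenin levels cannot be told from background. Its means in the other backgrounds ran from 7.29 to 7.87.

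Smim27, a small membrane protein gene, fell by 2.48 ± 0.31 on the log2 scale, although its other, dim probe set gave 0.10. Cap1, an actin-recycling protein gene, differed by -1.67 ± 0.16 and Tmem87a, a Golgi membrane protein gene, by -1.64 ± 0.11. Slc40a1, the iron exporter ferroportin, differed by -1.91 ± 0.32, with -0.57 by the other probe set. Ccn2, the connective tissue growth factor gene, was at least 2.86-fold lower (measured difference -2.07 ± 0.33), its beta-catenin levels being at background. The 5 genes kept their calls without any 1 array, but Slc40a1 lost it against the Cdkn2a knockout arrays with no myc in the title (adjusted p = 0.185). Asns, asparagine synthetase, read 9.55, 9.20 and 8.82 in beta-catenin tumours, against 9.94, 11.24 and 11.66 in Cdkn2a knockout tumours. The difference was -1.81 ± 0.33 (adjusted p = 0.00782), or -2.65 by the other probe set, and the call was lost without beta-catenin replicate 3 (adjusted p up to 0.0619). Itga6, the integrin alpha 6 gene, differed by -1.81 ± 0.45 (0.0305), a call lost without any 1 beta-catenin array or Cdkn2a knockout replicate 3 (up to 0.128).

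**Figure D3:**
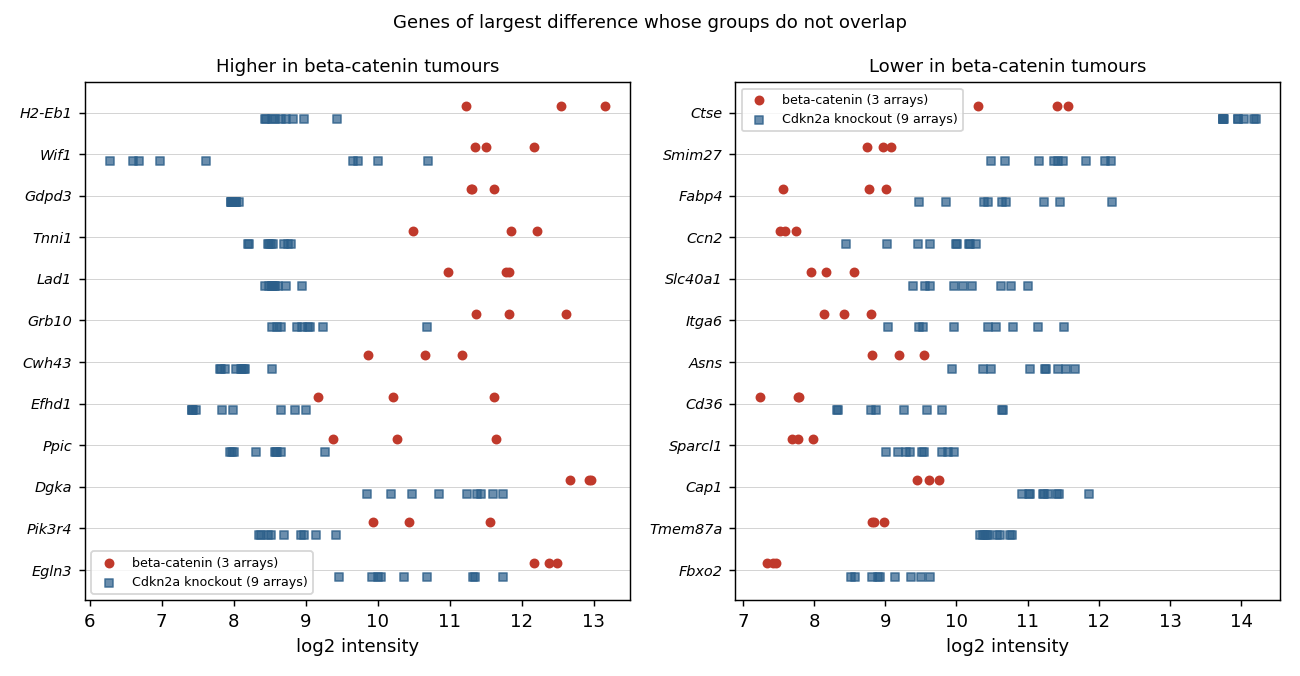
Log2 intensity on every array for the 12 highest and 12 lowest differences among called genes whose groups do not overlap; circles are the 3 beta-catenin arrays and squares the 9 Cdkn2a knockout arrays. The Cdkn2a knockout arrays lie between 7.97 and 8.07 for Gdpd3 and between 6.28 and 10.70 for Wif1.

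Class II antigen presentation genes, which mark B cells, macrophages and dendritic cells, had the highest median difference of all 32 lists. These are bulk samples, in which fewer cells of a type and less RNA per cell cannot be told apart. Of 8 class II presentation genes tested 2 rose and 0 fell, against 4.15% and 3.28% of all genes, with a median difference of 1.40, and 6 rose without Cdkn2a knockout replicate 8, against 12.1% of all genes. Their summed signal was 16840 to 53690 in beta-catenin tumours, against 6993 to 25510 in Cdkn2a knockout tumours. Besides H2-Eb1, Ctss, a protease that trims the invariant chain, rose by 1.24 ± 0.34 (adjusted p = 0.0434), a call lost without any array other than beta-catenin replicate 2 and Cdkn2a knockout replicate 8 (adjusted p up to 0.252). H2-Aa, the class II alpha chain gene, read 12.65, 11.14 and 13.19 in beta-catenin tumours, against 9.60, 10.59 and 12.07 in Cdkn2a knockout tumours. The highest Cdkn2a knockout values belonged to replicates 7 and 8 (11.63 and 12.07), and the difference was 1.71 ± 0.51 (adjusted p = 0.0605, or 0.0159 without replicate 8). Cd74, the invariant chain gene, differed by 1.64 ± 0.49 (0.0597, or 0.0169 without replicate 8), and H2-Ea by -0.17 ± 0.26.

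B cell markers also had higher mean levels in beta-catenin tumours: all 10 tested had a positive difference, the median was 0.41, 0 passed in limma (5 at an unadjusted p under 0.05) and 6 rose without replicate 8, against 12.1% of all genes. Their summed signal was 24810 to 27160 in beta-catenin tumours, against 6582 to 20550 in Cdkn2a knockout tumours. Ighm, the immunoglobulin mu gene, read 13.62, 13.48 and 13.47 in beta-catenin tumours, against 8.92, 11.50 and 13.11 in Cdkn2a knockout tumours (2.11 ± 0.73, adjusted p = 0.0921). Of its 11 probe sets 1 other gave a like difference (1.91), and the remaining 9 gave -0.23 to 0.31. Without Ighm the summed signal of the list was 13480 to 14910 in beta-catenin tumours, against 6097 to 12110 in Cdkn2a knockout tumours. Cd79a, a B-cell receptor subunit gene, read 10.75, 8.59 and 9.46 in beta-catenin tumours, against 8.91 and 9.75 in Cdkn2a knockout replicates 7 and 8 and 7.73 to 7.92 in the other 7. Pax5, the B-lineage regulator, stayed between 7.58 and 7.86 on all 12 arrays, below their lower quartiles. The part of B cells in the class II difference was not tested.

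Myeloid markers went both ways, with 2 higher and 1 lower of 20 tested (median 0.15), against 4.15% and 3.28% of all genes, and summed signals of 32670 to 61450 in beta-catenin tumours, against 29550 to 45690 in Cdkn2a knockout tumours. Itgam, an integrin gene of myeloid cells, read 9.63, 12.04 and 11.35 in beta-catenin tumours, and 11.36 in Cdkn2a knockout replicate 2 against 7.21 to 8.42 in the other 8. It was 2.83 ± 0.74 higher (adjusted p = 0.0376; up to 0.164 with 1 array left out, lost without beta-catenin replicate 2 or 3 or Cdkn2a knockout replicate 1, 3, 4, 5, 7 or 9). S100a8, a neutrophil protein gene, was 2.18 ± 0.50 higher with overlap between the groups (adjusted p = 0.0212). Its call was lost without beta-catenin replicate 2 or 3 (up to 0.099). Itgam and S100a8 lay at or below the lower quartile on 6 and 7 of the 9 Cdkn2a knockout arrays. With those values raised to it, their folds were 5.51 and 3.36. Mrc1, the macrophage mannose receptor gene, was lower (-1.42 ± 0.32, 0.02; up to 0.0984, lost without beta-catenin replicate 1 or 2), and Csf1r, a macrophage growth factor receptor gene, differed by -0.07 ± 0.17.

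Some stromal and endothelial genes were lower in beta-catenin tumours, and others were not. Of 16 tested 3 fell and 1 rose, against 3.28% and 4.15% of all genes, with a median difference of -0.46, and the gene that rose, Thy1 (0.56 ± 0.16), is also a T-cell surface marker. Of the 16, 10 had a negative and 6 a positive difference. The endothelial genes Pecam1 and Kdr differed by 0.19 and 0.05 and Plvap by -0.48, and none of them passed. Fabp4, a fatty acid carrier of fat and capillary cells, read 8.77, 7.56 and 9.01 in beta-catenin tumours, against 9.47, 10.64 and 12.19 in Cdkn2a knockout tumours. It was lower without overlap (-2.26 ± 0.48, adjusted p = 0.0172), and its other probe sets gave -2.35, -0.30 and -0.18. Sparcl1, a matrix protein gene that is not on the list, was at least 2.51-fold lower (measured difference -1.68 ± 0.19, adjusted p = 0.000223). Cd36, a fatty acid receptor gene also not on it, was at least 2.28-fold lower (measured difference -1.76 ± 0.48, adjusted p = 0.0432), and its other probe sets gave -1.93 and -0.19. Neither overlapped. Col4a1, a basement membrane collagen gene, differed by -0.65 ± 0.13 and Sparc, another matrix gene, by -1.17 ± 0.31.

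Of these, Sparcl1 kept its call without any 1 array. Fabp4 lost it without beta-catenin replicate 1 or 2 (adjusted p up to 0.0774) and Col4a1 without beta-catenin replicate 3 (0.0503). Cd36, Sparc and Thy1 lost it without any 1 beta-catenin array and without Cdkn2a knockout replicates 1, 3, 4 or 5, also replicate 6 for Cd36 and Thy1 and replicate 2 for Sparc and Thy1 (up to 0.137, 0.172 and 0.258). The summed signal of the stromal list was 21750 to 33760 in beta-catenin tumours, against 27300 to 38010 in Cdkn2a knockout tumours. Cdh5, an endothelial cadherin gene, read 7.73, 7.44 and 7.69 in beta-catenin tumours, against 8.20, 8.72 and 8.91 in Cdkn2a knockout tumours, and did not pass the filter on low values. The part of stromal cells in the lower genes, Ccn2 included, was not tested.

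**Figure D4:**
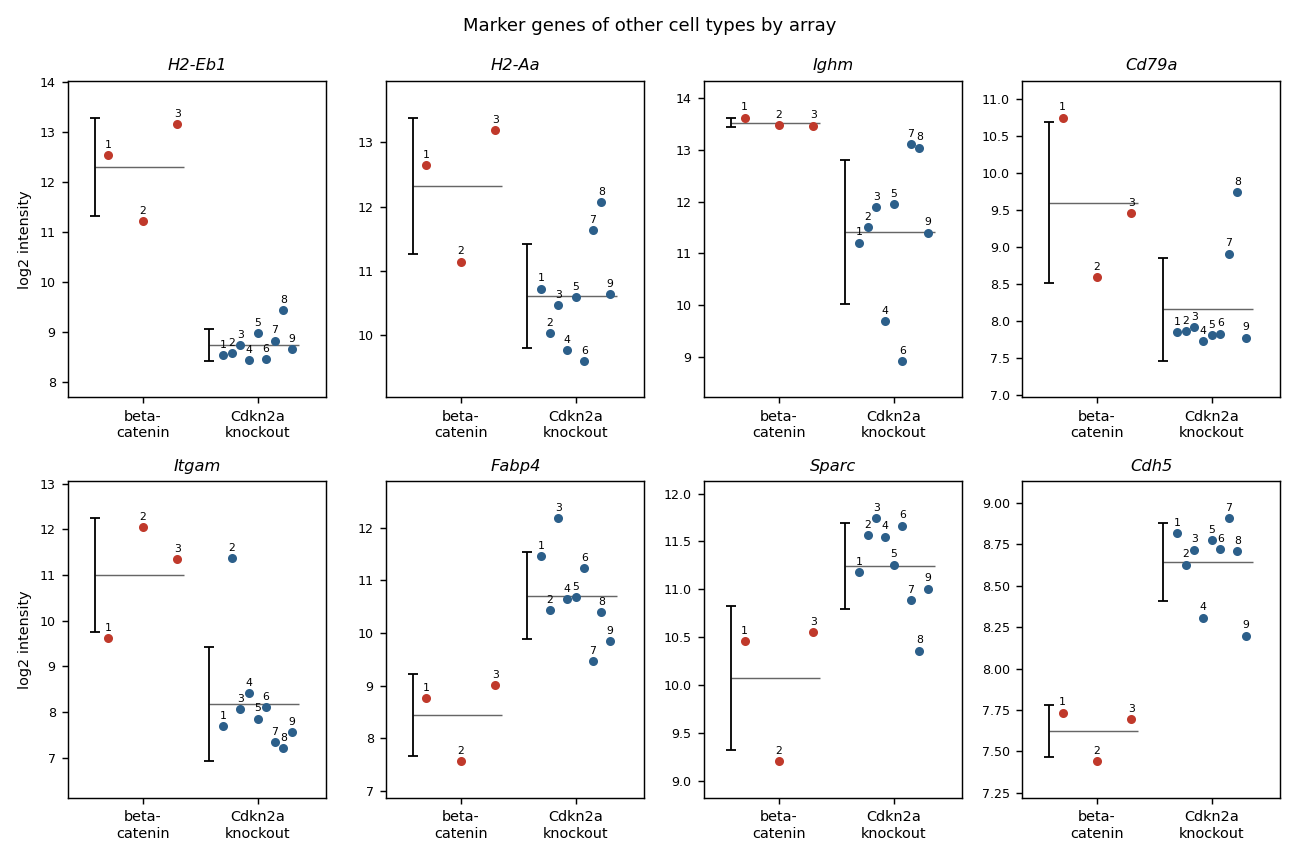
Log2 intensity of class II (H2-Eb1, H2-Aa), B cell (Ighm, Cd79a), myeloid (Itgam) and stromal (Fabp4, Sparc, Cdh5) marker genes on the 3 beta-catenin and 9 Cdkn2a knockout arrays; points are arrays numbered by replicate, lines are means and bars at the left are SD. H2-Eb1 is separate between the groups, whereas H2-Aa and Cd79a overlap through Cdkn2a knockout replicates 7 and 8.

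Cd3e, a subunit of the T-cell receptor complex that defines T cells, was well above the array medians in both groups, at 11.94 to 12.28 in beta-catenin tumours and 11.53 to 12.49 in Cdkn2a knockout tumours. The recombinase and double-positive stage list had 1 lower gene of 14 tested and 0 higher, against 3.28% and 4.15% of all genes. Rag2, a subunit of the recombinase that assembles antigen receptors, read 8.21, 7.92 and 8.36 in beta-catenin tumours, against 8.40, 9.07 and 9.56 in Cdkn2a knockout tumours. It was lower (-0.84 ± 0.21, adjusted p = 0.0333), a call lost without any 1 beta-catenin array or Cdkn2a knockout replicate 1, 3 or 5 (up to 0.124). Rag2 lay near the lower quartile on the beta-catenin arrays, at or below it on 1, and its difference was -0.74 with that value raised. Its partner Rag1 went the other way in mean (0.97 ± 0.66, adjusted p = 0.36), with replicate 8 the lowest array.

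The coreceptor gene Cd4 read 12.15, 11.75 and 12.54 in beta-catenin tumours, against 10.23, 11.23 and 11.79 in Cdkn2a knockout tumours (0.99 ± 0.29, adjusted p = 0.0573, or 0.0419 without replicate 8). By its other probe set Cd4 was 0.78 higher without overlap, at 11.30 to 11.55 in beta-catenin tumours against 10.28 to 10.98. Cd8a and Cd8b1 differed by 0.50 ± 0.47 and 0.80 ± 0.60 (0.515 and 0.404). Among 19 T-lineage transcription factors 2 rose and 0 fell, against 4.15% and 3.28% of all genes. Gata3, required for T-cell commitment, read 10.33, 10.86 and 10.85 in beta-catenin tumours, against 8.90, 9.89 and 10.25 in Cdkn2a knockout tumours (0.97 ± 0.27, adjusted p = 0.049). Tcf3, which encodes the E2A proteins, rose by 0.56 ± 0.14 (0.0338), and its other probe sets gave 0.66 and 0.71. Gata3 lost its call without any 1 beta-catenin array or Cdkn2a knockout replicate 1, 3, 4, 5 or 7 (up to 0.207), and Tcf3 lost it without beta-catenin replicate 1 or 3 or Cdkn2a knockout replicate 1, 4, 5 or 7 (up to 0.208).

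Of 14 genes known to respond to receptor stimulation in T cells 2 rose and 0 fell, against 4.15% and 3.28% of all genes. Irf4, a transcription factor graded by receptor strength, read 10.03, 9.54 and 9.54 in beta-catenin tumours, against 8.01, 8.11 and 8.84 in Cdkn2a knockout tumours. The difference was 1.40 ± 0.19 (2.63-fold, adjusted p = 0.00116), and 0.51 by the other probe set. The call held without any 1 array but not against the Cdkn2a knockout arrays with no myc in the title (adjusted p = 0.0615), and means elsewhere reached 10.32 in Ikaros plastic tumours. Junb, an AP-1 subunit gene, rose by 0.66 ± 0.17 (0.039). Of 19 genes of the receptor complex and its proximal signalling 2 rose, against 4.15% of all genes. They were Lcp2, an adaptor gene (0.67 ± 0.13), and Prkcq, a kinase gene (0.81 ± 0.23).

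Of 18 mature T-cell and egress genes 3 rose and 0 fell, against 4.15% of all genes that rose, and 7 rose without replicate 8, against 12.1%. Il4ra, an interleukin 4 receptor chain gene, read 11.11, 10.42 and 10.73 in beta-catenin tumours, against 9.45, 9.72 and 10.05 in Cdkn2a knockout tumours (1.02 ± 0.14, adjusted p = 0.0014). Cd27, a costimulatory receptor gene, read 11.998, 11.39 and 11.87 in beta-catenin tumours, against 10.42, 10.72 and 11.13 in Cdkn2a knockout tumours (1.01 ± 0.16, adjusted p = 0.0043). Both were separate between the groups and kept their calls without any 1 array, but not against the Cdkn2a knockout arrays with no myc in the title (adjusted p = 0.125 and 0.185). The other probe sets of Il4ra gave 0.97 and 0.38. Cxcr4, a chemokine receptor gene, rose by 0.76 ± 0.16 (0.0152).

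Of 19 cytokine receptor and JAK-STAT genes 3 rose and 0 fell, against 4.15% of all genes that rose, and 9 rose without replicate 8, against 12.1%. Il4ra, Socs1, a feedback inhibitor gene (0.97 ± 0.25, adjusted p = 0.0352), and Stat5a, a transcription factor gene (0.47 ± 0.13, 0.0452), were the 3. Pik3cd, a lymphocyte lipid kinase gene, was the 1 higher of 15 PI3K genes, against 4.15% of all genes (0.79 ± 0.21, adjusted p = 0.0406). Its other probe sets gave 0.20 and 0.56, and by the mean of its probe sets the call was lost. Lcp2 and Cxcr4 lost their calls without beta-catenin replicate 1 or 3 (adjusted p up to 0.0668 and 0.076). Junb, Prkcq, Socs1, Stat5a and Pik3cd lost theirs without beta-catenin replicate 1 or 3 or Cdkn2a knockout replicate 1 or 3 (up to 0.199, 0.22, 0.188, 0.207 and 0.208). The same held for beta-catenin replicate 2 with all of these but Stat5a. Among the other Cdkn2a knockout arrays, it held for replicates 4, 7 and 9 with Junb, 2, 4, 5, 7 and 9 with Prkcq, 5, 7 and 9 with Socs1, 2, 6 and 7 with Stat5a, and 2, 4 and 5 with Pik3cd.

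Proliferation genes tended to lower values. Of 32 DNA replication genes tested 29 had a negative difference and 3 fell, against 3.28% of all genes (median -0.30 against 0.01 over all genes). Without replicate 8, 16 fell, against 9.05% of all genes. Cdt1, a licensing factor gene, read 11.41, 11.20 and 10.97 in beta-catenin tumours, against 11.59, 11.87 and 12.03 in Cdkn2a knockout tumours. It fell by 0.63 ± 0.12 on the log2 scale (adjusted p = 0.0107; up to 0.0827, lost without beta-catenin replicate 3). Orc1 and Orc2, subunits of the origin recognition complex, differed by -0.57 ± 0.14 and -0.34 ± 0.09 (adjusted p = 0.0318 and 0.0338). Both calls were lost without beta-catenin replicate 1 or 3 or Cdkn2a knockout replicate 1, 3, 4 or 5, for Orc2 also replicate 2 (up to 0.161 and 0.158). The other probe sets of Orc2 gave -0.01 and -0.15, and by the mean of its probe sets the call was lost. Of 25 mitosis genes 0 passed in limma and 2 had an unadjusted p under 0.05, 22 had a negative difference, the median was -0.25, and 10 fell without replicate 8, against 9.05% of all genes.

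None of Myc, Myb, Pim1 and Ccnd3, the oncogenes named in the titles, passed between the groups. Myc read 12.02, 11.84 and 11.51 in beta-catenin tumours, against 11.77, 12.19 and 12.56 in Cdkn2a knockout tumours (-0.36 ± 0.17, adjusted p = 0.192). Myb read 12.72 to 12.95 in beta-catenin tumours, and in Cdkn2a knockout tumours it was highest in replicates 6 and 9 (12.996 and 13.18), both titled myb. Pim1 differed by 0.20 ± 0.23 and Ccnd3, a G1 cyclin gene, by 0.09 ± 0.34. Replicate 8, titled pim1_ccnd3, was the lowest Cdkn2a knockout array for both (9.01 and 11.05), but by the other Pim1 probe set it was the highest at 12.21.

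Rras2, a Ras family gene, read 8.86, 8.91 and 8.66 in beta-catenin tumours, against 9.09, 11.42 and 12.93 in Cdkn2a knockout tumours. Replicates 1, 2, 5, 7 and 9 read 11.42 to 12.93 and replicates 3, 4, 6 and 8 read 9.09 to 9.55. The difference of -2.23 ± 0.91 missed the threshold, without overlap between the groups (limma adjusted p = 0.138). By the other probe set of Rras2 the difference was -1.56 and the groups overlapped. There replicates 3, 4, 6 and 8 read 8.99 to 9.23, against 9.08 to 9.26 in beta-catenin tumours. Nras, another member of the family, differed by 0.12 ± 0.13 (adjusted p = 0.576). Of 24 insertion-site genes 1 rose (Stat5a) and of 15 Ras and MAP kinase feedback genes 1 rose (Plaur), shares near the 4.15% of all genes. Etv5, a transcription factor gene examined after its values were seen and downstream of MAP kinase, read 11.20, 10.29 and 10.55 in beta-catenin tumours, against 7.61, 8.74 and 10.26 in Cdkn2a knockout tumours (1.74 ± 0.53, adjusted p = 0.0648, or 0.0493 without replicate 8).

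Of 18 p53 target genes 1 rose, near the 4.15% of all genes. It was Apaf1, which encodes the apoptosome scaffold (0.44 ± 0.08, adjusted p = 0.00846), and its call held without any 1 array but not in the model of all 53 arrays or against the Cdkn2a knockout arrays with no myc in the title (adjusted p up to 0.301). Cdkn1a, a p53 target and cell-cycle inhibitor gene, read 9.83, 11.42 and 11.67 in beta-catenin tumours, against 9.61, 10.32 and 10.54 in Cdkn2a knockout tumours (0.80 ± 0.33, adjusted p = 0.14). Cd33, a surface receptor gene of progenitors, was the 1 higher of 5 early progenitor genes, against 4.15% of all genes (0.32 ± 0.08, adjusted p = 0.0313). Its call was lost without any 1 beta-catenin array or Cdkn2a knockout replicate 1, 3, 4, 5 or 7 (up to 0.128). In 12 further lists limma called 0 genes at an adjusted p under 0.05. Among them, an unadjusted p under 0.05 was reached by 3 of 31 ribosome biogenesis genes, 4 of 16 glycolysis genes, 5 of 17 interferon-stimulated genes, 5 of 12 class I presentation genes and 3 of 11 BCL2 family genes. It was also reached by 1 of 19 polycomb and chromatin genes, 3 of 8 genes of the Cdkn2a locus and cell-cycle inhibitors, 2 of 10 G1 cyclin and kinase genes, 2 of 4 cytotoxic effector genes, 2 of 5 erythroid and platelet genes, 0 of 6 hox genes and 0 of 4 adherens junction genes. Of all genes tested, 2000 of 7571 had an unadjusted p under 0.05.

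**Figure D5:**
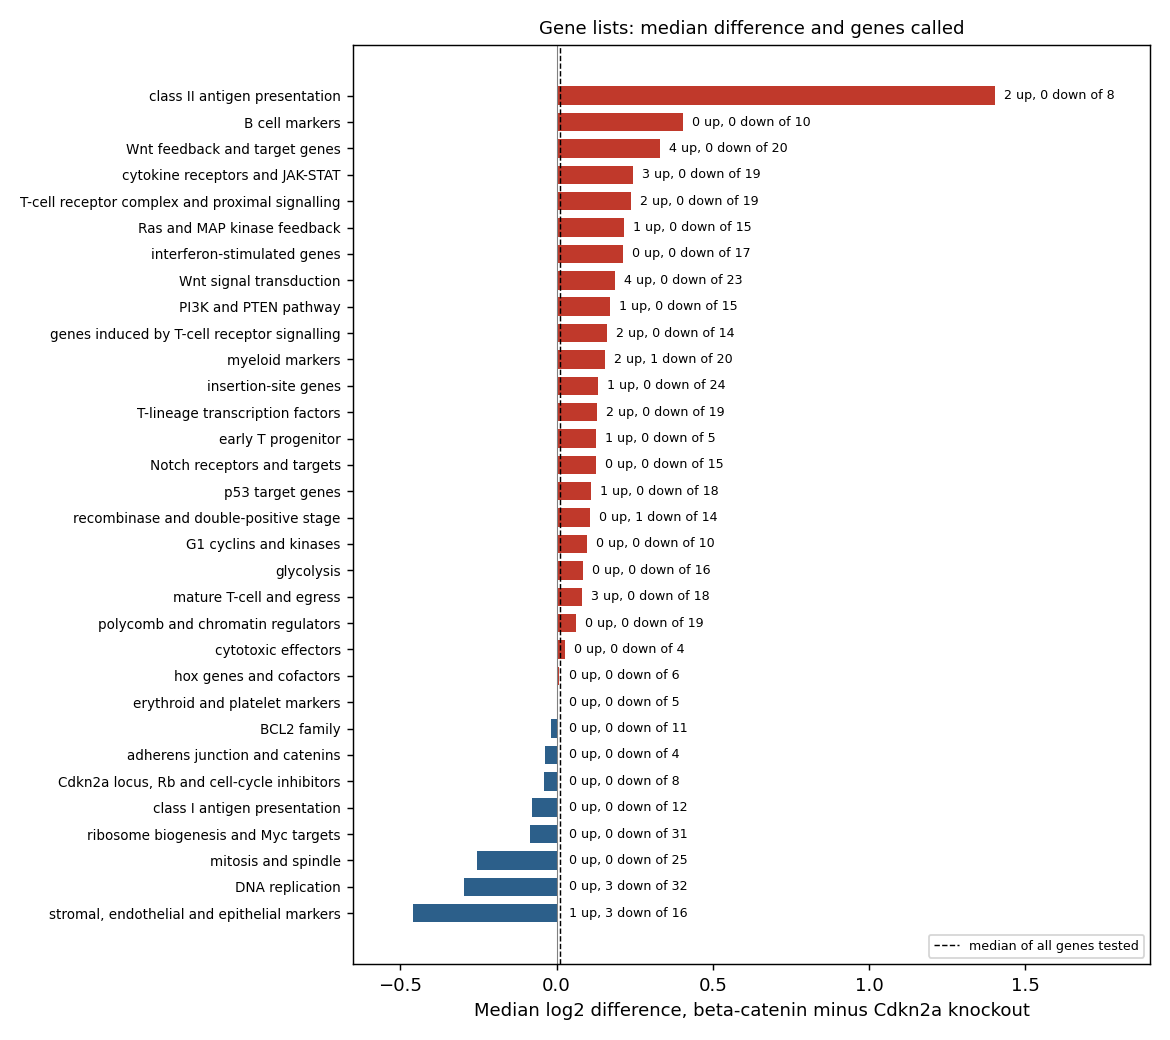
Median log2 difference (beta-catenin minus Cdkn2a knockout) over the tested genes of 32 lists, with the number of genes called higher and lower beside each bar; the dashed line is the median of all 7571 genes tested. The class II list has the highest median at 1.40 and the stromal list the lowest at -0.46.

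Each background was finally set beside the mean of the 13 others in a model of all 53 arrays. The 2 comparisons share those controls, so their values stand side by side without a test between them. Of the 7571 genes, 26.6% were higher and 13.9% lower in beta-catenin tumours than in the others, and 33.8% and 18.8% in Cdkn2a knockout tumours. With each array centred on its median, 1353 genes were higher and 2238 lower in beta-catenin tumours (2013 and 1052 uncentred), and 1635 higher and 2673 lower in Cdkn2a knockout tumours (2559 and 1424 uncentred). Centring moved the median difference of all genes to -0.16 in beta-catenin tumours (0.05 uncentred) and to -0.10 in Cdkn2a knockout tumours (0.07 uncentred). Wif1 was 4.80 above the others in beta-catenin tumours and 1.38 above them in Cdkn2a knockout tumours, Axin2 1.86 and 0.72, and Nkd1 1.33 and 0.98, all with an adjusted p of at most 0.00188. Notch1 was -4.00 in beta-catenin tumours and -3.09 in Cdkn2a knockout tumours, and Dtx1 -2.61 and -2.43.

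Genes of large difference in the direct comparison stood as follows. Tnni1 differed from the others by 3.31 in beta-catenin tumours and 0.32 in Cdkn2a knockout tumours, and Lad1 by 3.27 and 0.35. Fbxo2 was at -0.14 relative to the others in beta-catenin tumours, which did not pass (adjusted p = 0.444), and at 1.497 in Cdkn2a knockout tumours. Ctse was at -0.20 in beta-catenin tumours (0.77) and at 2.63 in Cdkn2a knockout tumours. H2-Eb1 differed by 2.48 in beta-catenin tumours and -1.10 in Cdkn2a knockout tumours, and Gdpd3 by 1.99 and -1.41.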

How the data were processed

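Expression was measured on 53 arrays, of which the 3 beta-catenin and 9 Cdkn2a knockout arrays were compared. The authors deposited 1 intensity per probe set and array, on a linear scale; no source used here gives the method of summary and normalization, and the values were used as deposited. The log2 of each intensity was taken. Of 22690 probe sets, 20380 carry 1 gene symbol in the platform annotation, 691 several, 1555 none and 64 are controls; 20351 symbols were matched by Entrez identifier. A gene was represented by its probe set of highest mean over all 53 arrays, which gave 12393 genes, 4956 of them with several probe sets. Tested genes (7571) exceeded the median of an array on 3 or more of the 12, so a gene could pass through the 3 beta-catenin arrays alone. The test was limma 3.58.1 (lmFit and eBayes, R 4.3.3) on the 12 arrays with Benjamini-Hochberg adjustment over all genes tested and a threshold of 0.05; errors of differences are standard errors. A second model held all 53 arrays and set each background against the mean of the 13 others. The fit was tested on simulated data. Groups came from the genotype labels. Arrays carry no counts, so their number limits the precision.

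Genes were named by this rule: the 12 highest and 12 lowest differences among called genes whose groups do not overlap, up to 5 called members of each of 32 gene lists, and a set of Wnt, Notch, title, cell-cycle and thymocyte genes whether called or not. Other named genes were picked after their values were seen. The backgrounds, lists and rule were chosen with earlier results of these data known. Alternatives covered the filter, the probe set, scaling, an added offset of 50, eBayes settings, array weights, subsets of arrays and covariates. Raising values to the lower quartile of their array, used for bounds, was chosen after seeing the data. The labels do not say what the numbers at the end of the titles mark. Tables were handled with Python 3.11.15, NumPy 2.4.6 and pandas 2.3.3, and figures drawn with Matplotlib 3.10.9.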

Additional observations from a re-analysis of the deposited data

Results flagged for a closer look

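Among 85 genes and array measures, 14 had 1 Cdkn2a knockout array far from the other 8 of its group, by the gap to the nearest array over the whole range (critical value 0.493 for 9 samples). Chance gives about 5% of such gaps. The 3 beta-catenin arrays were not examined in this way.

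Replicate 8, titled pim1_ccnd3, accounted for 6. It was low for Rag1 (8.14, others 10.97 to 12.47), Cd8b1 (9.19, others 11.95 to 12.88), Tcf3 (10.19, others 10.59 to 10.92) and Socs1 (8.67, others 9.45 to 10.19). It was high for Cd33 (10.18, others 9.83 to 9.96) and for the log2 array median (9.20, others 8.95 to 9.06).

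Replicate 7, titled myc_mix_I, accounted for 3, all of them Notch pathway genes. It was high for Notch1 (12.11, others 8.25 to 10.08), Dtx1 (12.24, others 8.53 to 9.18) and Ptcra (10.45, others 7.85 to 8.51).

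Replicate 2, titled ras_I, accounted for 3 and was high for Grb10 (10.68, others 8.53 to 9.24), Cwh43 (8.53, others 7.81 to 8.15) and Itgam (11.36, others 7.21 to 8.42). Replicate 6, titled myb_II, had the highest log2 ratio of 3' to 5' probe sets for beta-actin (0.43, others 0.06 to 0.18) and for Gapdh (0.24, others -0.11 to -0.00).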

How the results depend on the processing

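The direct comparison gave 314 genes higher and 248 lower. The counts were 1105 and 895 with array weights and 868 and 738 against the Cdkn2a knockout arrays with myc in the title. They were 16 and 10 against the smaller set of arrays without, which includes replicate 8. With replicates 7 and 8 left out, an alternative chosen after seeing the data, they were 843 and 611. The model of all 53 arrays gave 163 lower. Leaving out 1 array at a time gave 82 to 917 higher and 71 to 685 lower, the highest without Cdkn2a knockout replicate 8 and the lowest without beta-catenin replicate 3. With the title numbers as a replicate block, which leaves out the unnumbered replicate 8, 629 genes were higher and 472 lower. Same-numbered arrays deviated from their group means with correlations of -0.19 to 0.29, against -0.17 to 0.33 for the other pairs. The labels do not say what the numbers mark, and a shared batch was not tested. Of 56 called named genes, 11 kept their call under every alternative other than leaving out 1 array, and 22 with any 1 array left out.

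Against the other backgrounds, 3730 genes were higher without a filter and 2238 lower after centring in beta-catenin tumours; in Cdkn2a knockout tumours 4537 were higher and 2223 lower without a filter, and 1635 and 2673 after centring. Without a filter more genes are tested. Uncalled differences that changed sign were Nrarp (0.154 against myc-titled arrays, 0.271 with the beta-actin covariate, 0.0327 with the replicate block, and -0.52 to 0.197 with 1 array left out), Ccnd3 (-0.0463, -0.128 and -0.123 in the same order, and -0.0199 to 0.277 with 1 array left out) and the bacterial controls (-0.0184 by their median). The cause of these changes was not tested. Levels below the lower quartile of an array cannot be told from background. Of the 56 called named genes, 4 had every array of 1 group there and 13 had some, Wif1 and Gdpd3 among them, which limits the size of their differences.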

Other observations

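The single genes below were picked after their values were seen and stand for no group. Cd274, which encodes the checkpoint ligand PD-L1, read 9.62, 9.65 and 10.39 in beta-catenin tumours, against 8.04, 8.37 and 8.86 (lowest, median and highest of 9) in Cdkn2a knockout tumours. The groups did not overlap, and the difference was 1.52 ± 0.20 (limma adjusted p = 0.00091). Ccl22, a chemokine gene, read 10.22, 10.03 and 10.58 in beta-catenin tumours, against 8.61, 8.93 and 9.42 in Cdkn2a knockout tumours (1.31 ± 0.14, adjusted p = 0.000223). Means of the other backgrounds ended at 9.25 for Cd274 and 9.10 for Ccl22, below all 3 beta-catenin arrays. Cd37, a leukocyte membrane protein gene, was higher by 1.52 ± 0.29 (adjusted p = 0.0092), but its other probe set gave -0.00.

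Cav1, a membrane scaffold gene of endothelium, read 8.30, 8.34 and 8.50 in beta-catenin tumours, against 8.92, 9.72 and 9.99 in Cdkn2a knockout tumours (-1.21 ± 0.23, adjusted p = 0.0092). Aqp1, a water channel gene of capillaries, was at least 1.83-fold lower with its beta-catenin levels raised to the lower quartile (measured difference -1.25 ± 0.21, adjusted p = 0.00462), and Igf1, a growth factor gene, differed by -1.06 ± 0.20 (0.00879). Selenop, a selenium carrier gene, differed by -1.12 ± 0.15 (0.000916). None of the 4 overlapped between the groups. Phgdh, which opens serine synthesis, read 12.03, 10.80 and 11.93 in beta-catenin tumours, against 12.26, 12.40 and 12.59 in Cdkn2a knockout tumours (-0.83 ± 0.20, adjusted p = 0.0259), with beta-catenin replicate 2 far below the other 2.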
